A study of Mus musculus with 6 samples.

Results

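The genes described here are interferon-stimulated antiviral effectors, genes that interferon is known to switch on. Many of their proteins act against viruses directly, while some, such as Usp18, also hold back signalling. The genes were chosen by name, with earlier results of these data known, as a list of 43 gene symbols. The list leaves out the interferon regulatory factors, the STAT proteins, the guanylate-binding proteins, the Schlafen genes, the MHC genes and most immunity-related GTPases. Ifi47, which belongs to the last family, is on the list. Of the 43, 41 had a row among the 21936 genes of the deposited tables, and all 41 were among the 9953 genes tested. Mx1 and Mx2 were not analysed here. RNA was sequenced from sorted mouse macrophages in 2 groups of 3 libraries. Libraries labelled WT came from ALKBH5flox/flox, APOE-/- animals, in which Alkbh5 is flanked by loxP sites. Libraries labelled CKO came from ALKBH5flox/flox, Lyz2-Cre, APOE-/- animals, in which Cre recombinase is driven from the Lyz2 locus, active in macrophages, other myeloid cells and neutrophils. All animals therefore lacked Apoe by label, and the diet was high in fat for all of them, over 4 months. The series title names macrophage senescence and the chemokine Ccl5. ALKBH5, the protein that the label CKO gives as deleted, removes the N6-methyladenosine mark from RNA.

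Type I interferons bind a receptor of the IFNAR1 and IFNAR2 chains, and the kinases JAK1 and TYK2 then activate transcription factors of the STAT family. One complex of these, which also holds IRF9, binds the interferon-stimulated response element (ISRE) in promoters, and the interferon-gamma-activated site (GAS) is a second kind of STAT site. Macrophages sense nucleic acids from microbes and dying cells, and effector genes of this kind are among the best known targets of that response. The effectors act at separate steps. Some bind or degrade foreign RNA, some block entry, nucleotide supply or release at membranes, some attach the ubiquitin-like protein ISG15 or ubiquitin to other proteins, and some bind DNA or form nuclear bodies.

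Promoter sequence was available from RefSeq (build GRCm38.p6, the assembly also named mm10) for 33 of the 41 effectors, as 39 windows from 250 bases before to 50 bases after a transcript start. The bases before the start are printed for effectors with copies of the ISRE, for 2 pairs of near-identical genes, and for Trim25, the effector with the smallest difference between the groups. Each run is 200 bases long, ends at the base before the start and is written 5′ to 3′ on the gene's own strand. Capitals mark matches to the core GAAANNGAAA or to the GAS pattern TTCNNNGAA, where N is any base. A match on the opposite strand reads as its reverse complement, beginning with TTTC for the core.
Isg15 (chr4:156200819-156201018, minus strand): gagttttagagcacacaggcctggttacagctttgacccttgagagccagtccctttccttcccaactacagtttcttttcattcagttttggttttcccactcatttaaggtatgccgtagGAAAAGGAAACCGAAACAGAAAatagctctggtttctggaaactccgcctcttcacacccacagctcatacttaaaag
Rsad2 (chr12:26456453-26456652, minus strand): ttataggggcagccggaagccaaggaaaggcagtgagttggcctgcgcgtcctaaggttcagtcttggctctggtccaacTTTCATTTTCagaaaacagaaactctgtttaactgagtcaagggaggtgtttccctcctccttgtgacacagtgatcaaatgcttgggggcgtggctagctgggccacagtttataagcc
Ifit1 (chr19:34640689-34640888, plus strand): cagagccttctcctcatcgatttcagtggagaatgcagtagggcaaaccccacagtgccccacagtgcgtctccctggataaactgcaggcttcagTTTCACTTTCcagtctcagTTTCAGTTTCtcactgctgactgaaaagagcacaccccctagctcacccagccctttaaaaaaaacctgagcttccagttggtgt
Ifit3 (chr19:34583329-34583528, plus strand): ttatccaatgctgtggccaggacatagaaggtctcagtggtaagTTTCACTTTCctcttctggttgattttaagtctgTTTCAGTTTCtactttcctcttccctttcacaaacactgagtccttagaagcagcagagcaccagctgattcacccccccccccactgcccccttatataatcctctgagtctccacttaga
Ifit3b (chr19:34607757-34607956, plus strand): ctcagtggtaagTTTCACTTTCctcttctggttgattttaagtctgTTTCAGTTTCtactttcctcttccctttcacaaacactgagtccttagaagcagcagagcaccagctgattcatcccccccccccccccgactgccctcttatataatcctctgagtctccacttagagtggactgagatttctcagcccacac
Oas1a (chr5:120907526-120907725, minus strand): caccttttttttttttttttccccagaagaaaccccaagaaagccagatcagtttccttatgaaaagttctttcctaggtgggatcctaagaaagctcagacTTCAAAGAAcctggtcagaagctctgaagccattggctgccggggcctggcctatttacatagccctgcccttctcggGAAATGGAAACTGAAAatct
Oas1g (chr5:120887614-120887813, minus strand): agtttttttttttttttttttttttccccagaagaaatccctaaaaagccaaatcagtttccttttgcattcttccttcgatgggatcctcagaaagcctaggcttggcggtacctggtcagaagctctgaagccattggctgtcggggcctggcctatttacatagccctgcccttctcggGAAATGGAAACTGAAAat
Bst2 (chr8:71537473-71537672, minus strand): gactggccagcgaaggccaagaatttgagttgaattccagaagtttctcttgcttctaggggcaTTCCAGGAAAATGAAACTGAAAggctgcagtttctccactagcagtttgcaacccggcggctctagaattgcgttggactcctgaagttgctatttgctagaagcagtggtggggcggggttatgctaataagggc
Trim25 (chr11:88999203-88999402, plus strand): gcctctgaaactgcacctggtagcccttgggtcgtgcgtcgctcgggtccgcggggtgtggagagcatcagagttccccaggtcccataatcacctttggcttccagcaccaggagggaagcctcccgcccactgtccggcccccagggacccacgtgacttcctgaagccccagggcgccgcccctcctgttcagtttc
Isg15 held 3 overlapping copies of the core between positions -78 and -57, counted back from the transcript start, and Bst2 held 2 overlapping copies from -130 to -115, the first of which also overlaps a GAS match from -136 to -128. The copies in Ifit1 began at -104 and -85. Ifit3 and Ifit3b each carried 2 copies on the opposite strand, beginning at -156 and -122 in Ifit3 and at -188 and -154 in Ifit3b. With a shift of 32 bases their upstream runs were 82.1% identical over 168 aligned bases. Oas1a and Oas1g had 2 overlapping copies that end just before the start, and their runs were 72.2% identical over 198 aligned bases. Trim25 has no capitals because neither pattern was found in its window.

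The core was found, on either strand and with overlapping matches counted, in the windows of 14 of the 33 effectors (42.4%). Among all 32851 RefSeq windows of the same length 3.44% held it, and among all 27025 genes with a window 3.99% did. The 631 other genes that were called higher in the libraries labelled CKO by at least 1 on the log2 scale held it in 10.9%. At least 2 copies stood in 10 of the 39 windows of the effectors, against 0.225% of all windows. The GAS pattern was found in 6 of the 33 effectors (18.2%), against 9.55% of all genes with a window. In 12 of the 14 effectors at least 1 copy of the core lay wholly before the start, and in Ifitm3 and Trim21 the copies lay after it. A match is a description of these letters and says nothing of binding, and a window without one says only that the letters are not in it.

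**Figure D1:**
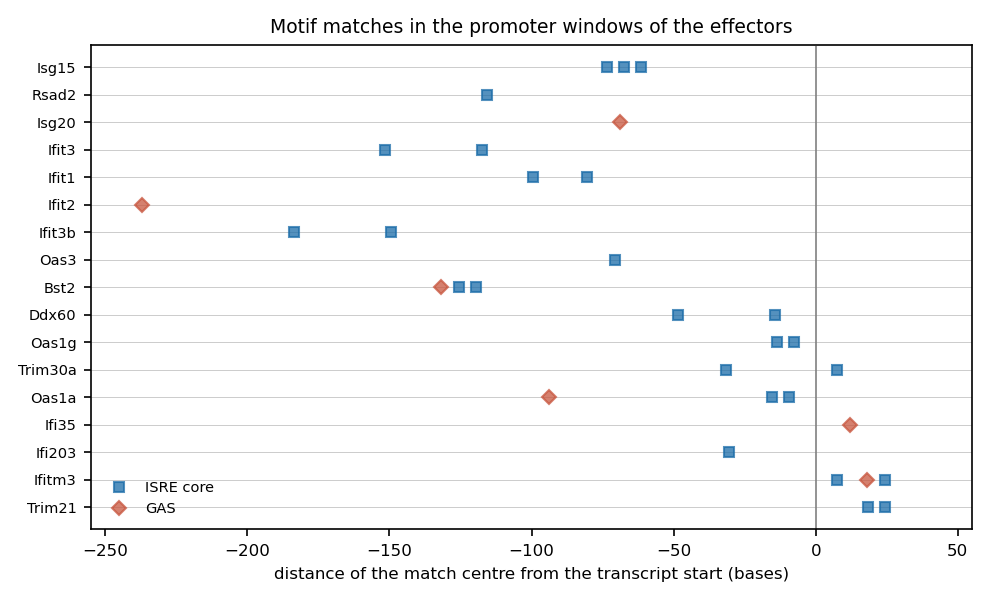
Positions of matches to the ISRE core (blue squares) and the GAS pattern (red diamonds) in the RefSeq promoter windows of the 17 effectors that hold either one. The x axis is the distance in bases of the centre of each match from the transcript start (vertical line); effectors are ordered from the largest to the smallest log2 difference between the groups, and most matches lie in the 200 bases before the start.

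Values are deposited FPKM, that is reads scaled by gene length and by the total assigned to genes, and each library held between 15422154 and 18418903 reads. The check of the targeted gene went against the label. Alkbh5 read 3.77, 3.95 and 3.88 FPKM in the WT-labelled libraries and 9.15, 8.61 and 8.50 in the CKO-labelled ones (log2 difference 1.00, SE 0.050, limma adjusted p = 4.78e-09). Apoe was not silent in either group, at 1635 ± 29.3 FPKM (SD, n = 3) in the WT-labelled libraries and 95.0 ± 4.69 in the CKO-labelled ones. FPKM sum over whole genes, so they do not show whether a single exon is missing. Whether groups or libraries were mislabelled was not tested, and every direction refers to the libraries as labelled. All 12 macrophage markers reached 1 FPKM, and their sum was 17191 to 19108 FPKM in the libraries labelled WT and 9539.8 to 9961 in those labelled CKO, with 5 markers higher and 7 lower. Most of that sum is Lyz2, whose locus carries the Cre, at 15116 ± 992 against 6556 ± 211 FPKM. The other 11 markers summed to 2797 to 2878 FPKM in the libraries labelled WT and to 3108 to 3164 in those labelled CKO. Neutrophil markers summed to 655 to 941 FPKM against 102 to 115, with 8 of 8 tested lower. Over all genes tested 30.5% were called higher and 50.5% lower. The conventional dendritic cell markers summed to 3.01 to 3.40 FPKM against 22.1 to 25.9, with Ccr7 at 0.742 ± 0.0497 against 21.1 ± 1.81. Without Ccr7 the other 7 summed to 2.22 to 2.66 FPKM against 2.60 to 2.81, ranges that overlap. Both of the 2 tested, Ccr7 and Batf3, were higher. Of those not tested, Xcr1 and Zbtb46 read higher and Clec9a, Cd209a and Itgae lower, all under 1 FPKM, while the groups overlapped in Flt3. Sums of T and NK cell, B cell, and erythroid and platelet markers were at most 22.7 FPKM in any library, and lower in the libraries labelled CKO for all 3 lists. Stromal and vascular markers summed to 27.8 to 28.9 FPKM against 11.3 to 12.7, with Vwf at 19.8 ± 0.165 against 2.78 ± 0.264, and 2 of 4 tested were higher and 2 lower. Without Vwf the other 11 summed to 8.07 to 9.16 FPKM against 8.86 to 9.80. Their part in the results was not tested. Plasmacytoid dendritic cells, the classical producers of type I interferon, had markers that summed to 5.78 to 6.19 FPKM in the libraries labelled WT and 5.63 to 6.57 in those labelled CKO, ranges that overlap. Of their 8 markers 5 reached 1 FPKM in some library, the highest at 2.43 FPKM, and Klk1 was at 0 in all 6 libraries. Siglech did not exceed 0.401 FPKM, at 0.372 ± 0.0457 in the libraries labelled WT against 0.0119 ± 0.0104 in those labelled CKO. Of the 3 tested, 1 was higher (Spib) and 2 were lower (Tcf4 and Runx2).

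Every one of the 41 effectors was higher in the libraries labelled CKO. All 41 passed the test across genes (limma on log2(FPKM + 1), Benjamini-Hochberg adjusted p under 0.05), with adjusted p from 1.20e-16 to 1.70e-09, and none was lower. Over all 9953 genes tested 81.1% were called in either direction, 30.5% higher and 50.5% lower, so that a call alone was common in these data and a higher call was not the usual one. The share of higher calls among all calls was 37.7%, and 51.2% when libraries were scaled by the median of ratios. In all 41 effectors the lowest library labelled CKO lay above the highest labelled WT, which held for 31.2% of all genes tested. Groups without overlap were common, since 3105 of the 9953 genes tested lay wholly above and 5109 wholly below. A difference of at least 1 on the log2 scale was reached by 40 of 41, against 8.35% of all genes tested. Since the list was chosen with earlier results of these data known, these shares describe it and are not a test of it. The median difference was 2.79 for the effectors and -0.14 for all genes tested. As a ratio of mean FPKM the effectors were 1.68-fold to 61.5-fold higher with a median of 7.32-fold, and 16 of them passed 10-fold. In bulk RNA, more cells of a type and more RNA per cell cannot be told apart. No label ties the libraries to separate animals, and the p-values therefore reflect library-to-library spread that may be technical.

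As a pool the effectors took up 0.327% ± 0.0105 of reads in the WT-labelled libraries and 1.98% ± 0.0238 in the CKO-labelled ones (SD, n = 3 each). Their summed level rose from 1469 ± 45.2 to 8117 ± 203 FPKM, a ratio of 5.53. The level of the median effector was 12.2 ± 0.851 FPKM against 101 ± 3.03. Between 25 and 27 effectors reached 10 FPKM in a library labelled WT, and all 41 did in each library labelled CKO. A level of 100 FPKM was reached by 3 effectors in each library labelled WT and by 20 to 22 in each labelled CKO. Ifitm3, Bst2 and Isg15, the most abundant effectors in the libraries labelled CKO, made up 41.3% ± 0.536 of the summed level there.

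**Figure D2:**
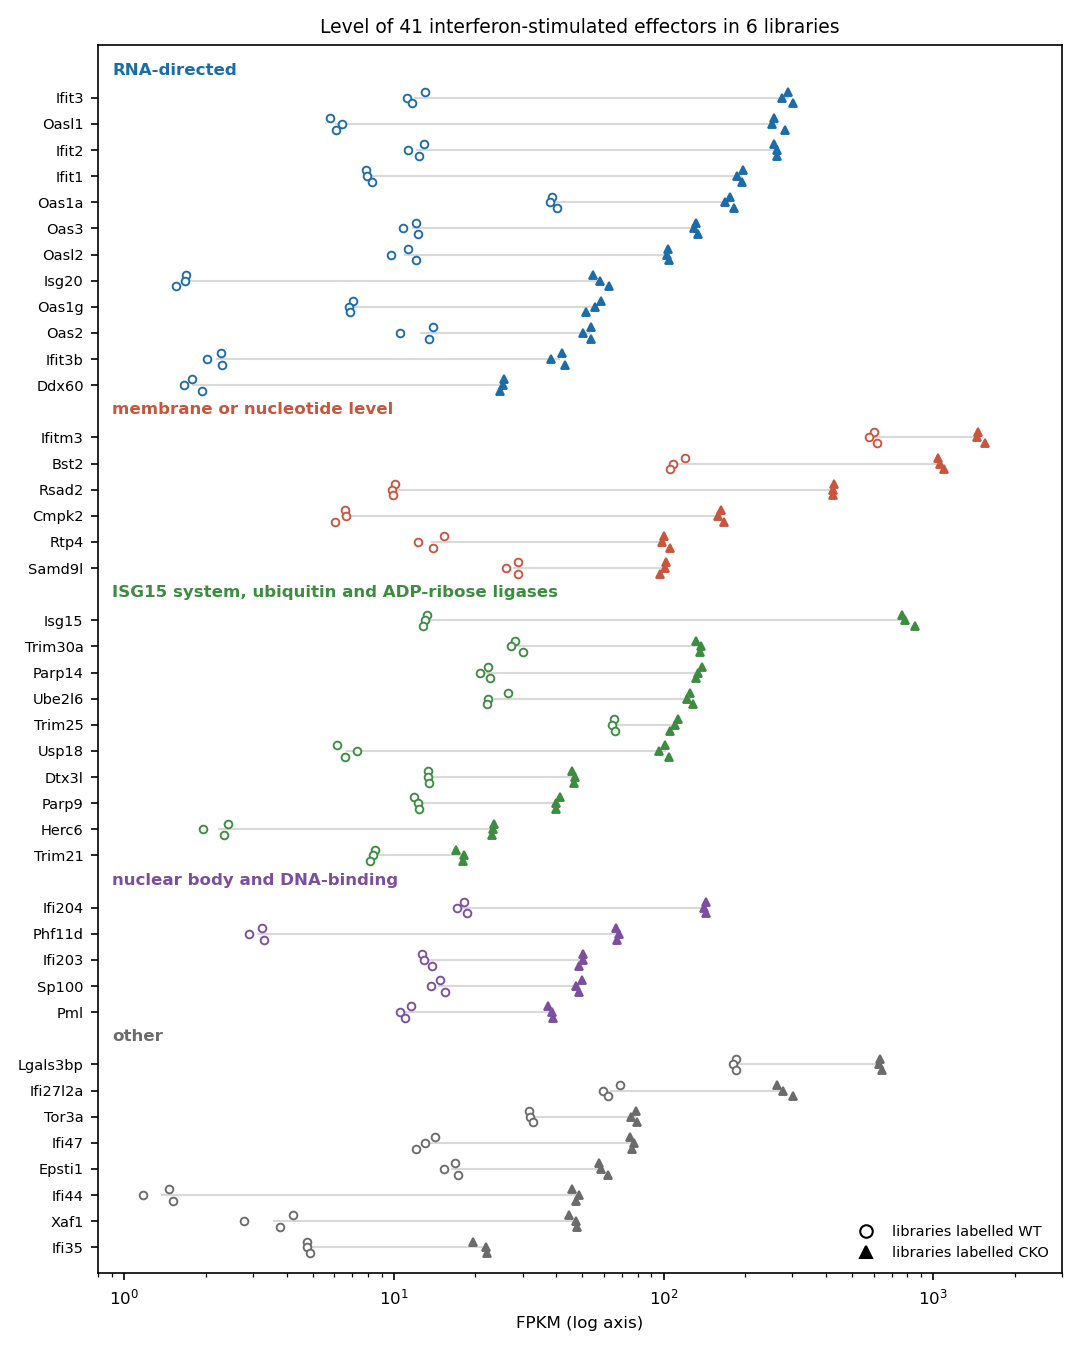
FPKM of each of the 41 effectors in each of the 6 libraries on a log axis, grouped by role, with open circles for the 3 libraries labelled WT and filled triangles for the 3 labelled CKO; a grey line joins the means of both groups. In every row the 3 triangles lie to the right of the 3 circles, with the widest gap in Isg15 and the narrowest in Trim25.

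The RNA-directed effectors had the largest median log2 difference of the role groups, 3.55 over 12 genes, with ratios from 4.17 to 43.3. Oasl1, an oligoadenylate synthetase-like protein without synthetase activity that restrains translation of Irf7 mRNA, read 5.79, 6.39 and 6.10 FPKM in the WT-labelled libraries and 256, 253 and 282 in the CKO-labelled ones. Its difference of 5.22 (SE 0.048, limma adjusted p = 6.65e-15) was the third largest of the 41, and no library came near the other group. Ifit3, a tetratricopeptide protein, was the most abundant of the group in the libraries labelled CKO. It read 13.0, 11.2 and 11.7 FPKM against 290.0, 275 and 302 (difference 4.49, SE 0.052, limma adjusted p = 2.91e-14).

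Ifit3 belongs to a cluster of 4 effectors on chromosome 19 (34550694 to 34650009, mm10), together with Ifit2, Ifit3b and Ifit1. Ifit1, which binds viral RNA that lacks the methylated cap of host mRNA, rose from 8.04 ± 0.241 to 193 ± 5.11 FPKM. Ifit2, which binds AU-rich RNA, rose from 12.2 ± 0.855 to 261 ± 3.89 FPKM. The ratios of the 4 neighbours lay close together, between 18.6 and 24.2. Ifit3b, from 2.21 ± 0.152 to 41.1 ± 2.61 FPKM, shares much of its transcript with Ifit3. Of the 50-base words of Ifit3 51.2% also occur in Ifit3b, so reads could be split between them and their separate values are uncertain.

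Oligoadenylate synthetases sense double-stranded RNA and make a small messenger from ATP. Oas2, Oas3, Oas1g and Oas1a lie together on chromosome 5 (120730333 to 120907521) and rose by ratios of 4.17 to 11.3, a lower range than that of the Ifit cluster. Oas3, the synthetase best known for sensing long RNA, rose from 11.7 ± 0.794 to 132 ± 2.77 FPKM. Oas1a stood higher in the libraries labelled WT, at 38.9 ± 1.25 FPKM, and reached 176 ± 6.43. Oas1g went from 6.91 ± 0.113 to 55.3 ± 3.45 FPKM, and Oas2 from 12.6 ± 1.84 to 52.7 ± 2.03. Of the 50-base words of Oas1a 57.6% occur in Oas1g, so these 2 levels are uncertain in the same way as those of the Ifit3 pair. Oasl2, which neighbours Oasl1 elsewhere on chromosome 5 and keeps synthetase activity, rose 9.40-fold, less than the 43.3-fold of Oasl1.

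Isg20, an exonuclease that degrades RNA, was among the lowest effectors in the libraries labelled WT at 1.64 ± 0.0791 FPKM and reached 58.5 ± 3.94, a ratio of 35.7. Ddx60, a helicase that works with the RNA sensor RIG-I, rose from 1.80 ± 0.134 to 25.1 ± 0.438 FPKM.

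Among the 6 effectors that act at membranes or on nucleotides the median difference was 3.02. Ifitm3, which sits in endosomes and blocks fusion of viruses, was the most abundant effector in both groups. It read 605, 578 and 617 FPKM in the WT-labelled libraries and 1468, 1456 and 1548 in the CKO-labelled ones, a ratio of 2.49 (difference 1.31, SE 0.033, limma adjusted p = 1.21e-11). The groups did not overlap, although only 3 of the 41 effectors had a smaller difference. Bst2, or tetherin, holds budding virus at the cell surface and is also a marker of plasmacytoid dendritic cells. It read 120.1, 108 and 106 FPKM against 1037, 1054 and 1096 (difference 3.25, SE 0.044, limma adjusted p = 9.79e-14); all 3 libraries labelled CKO stood far above the other 3.

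Rsad2, or viperin, makes a modified nucleotide that ends viral RNA chains, and had the second largest difference of all effectors. It read 10.1, 9.82 and 9.89 FPKM in the WT-labelled libraries and 428, 424 and 425 in the CKO-labelled ones (difference 5.28, SE 0.029, limma adjusted p = 1.20e-16). Within each group the 3 libraries were nearly equal. Cmpk2, a nucleotide kinase of mitochondria that supplies the substrate of viperin, lies beside Rsad2 on chromosome 12 (26442746 to 26479837 for both). Cmpk2 rose from 6.42 ± 0.343 to 163 ± 4.36 FPKM, a ratio of 25.4 beside 42.8 for Rsad2. Rtp4, a receptor transport protein that also binds flaviviral replication complexes, rose 7.32-fold. Samd9l, which limits protein synthesis in infected cells, rose 3.57-fold, from 28.0 ± 1.61 to 99.7 ± 2.57 FPKM.

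The ISG15 system and the ubiquitin and ADP-ribose ligases held both ends of the range. Isg15 itself, a ubiquitin-like protein joined to other proteins and also secreted, had the largest difference of the 41. It read 13.2, 13.0 and 12.8 FPKM in the WT-labelled libraries and 764, 782 and 852 in the CKO-labelled ones (difference 5.84, SE 0.040, limma adjusted p = 7.09e-16; chromosome 4, 156199455 to 156200796). The lowest library labelled CKO was 57.9-fold above the highest labelled WT. At the other end stood Trim25, the ubiquitin ligase that activates RIG-I, with 65.4, 64.5 and 65.8 FPKM against 113, 110.1 and 106. Its difference was 0.74 (SE 0.033, limma adjusted p = 1.70e-09; chromosome 11, 88999376 to 89020293), a ratio of 1.68 between groups that did not overlap.

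Enzymes of the ISG15 cycle rose as well, with smaller ratios than Isg15. Ube2l6, the conjugating enzyme that passes ISG15 on, rose from 23.6 ± 2.51 to 125 ± 3.40 FPKM. Herc6, the mouse ligase for ISG15, rose from 2.24 ± 0.251 to 23.3 ± 0.181 FPKM. Usp18, which removes ISG15 and also holds back signalling at IFNAR2, rose 15.1-fold, from 6.68 ± 0.580 to 101 ± 4.22 FPKM. Of the 50-base words of Herc6 12.5% occur in other genes.

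The second most abundant gene of the group in the libraries labelled CKO was Trim30a, a RING-finger protein that acts in innate signalling, nearly level with Parp14. It read 28.0, 27.1 and 30.1 FPKM in the WT-labelled libraries and 132, 137 and 136 in the CKO-labelled ones (difference 2.21, SE 0.040, limma adjusted p = 8.76e-13). Trim21, an antibody receptor inside the cell that directs bound virus to the proteasome, had the second smallest difference of all effectors. It read 8.48, 8.37 and 8.18 FPKM against 17.0, 18.2 and 18.1, without overlap (difference 1.01, SE 0.043, limma adjusted p = 1.26e-09). Parp14, Dtx3l and Parp9 are neighbours on chromosome 16 (35832874 to 35972605) and rose by 6.15-fold, 3.46-fold and 3.31-fold. Dtx3l and Parp9 proteins form a ligase complex. Their genes lie on opposite strands and share 458 exon bases, 8.0% of those of Dtx3l, so part of their reads could not be told apart if counting ignored strand.

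All 5 effectors of nuclear bodies and the DNA-binding HIN200 and PHD families rose, with a median difference of 1.84. Ifi204, a HIN200 protein that binds DNA, was the most abundant. It read 18.1, 17.1 and 18.7 FPKM in the WT-labelled libraries and 144, 142 and 143 in the CKO-labelled ones (difference 2.93, SE 0.036, limma adjusted p = 4.75e-14). Phf11d, a PHD-finger protein, rose from 3.25, 2.90 and 3.28 FPKM to 66.8, 68.0 and 67.1, the largest change of the group (difference 4.04, SE 0.045, limma adjusted p = 2.17e-14). In both genes the libraries of a group stood close together, far from the other group.

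Ifi203, another HIN200 protein beside Ifi204 on chromosome 1, rose 3.77-fold, against 7.96-fold for Ifi204. Pml and Sp100, which build nuclear bodies that silence viral DNA, rose by similar ratios of 3.46 and 3.31. Ifi204 shares 703 of its 3512 words of 50 bases with other genes and Ifi203 843 of 6896, which makes their separate levels less certain.

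The 8 remaining effectors have roles less firmly tied to 1 step, and their median difference was 2.03. Lgals3bp, a secreted glycoprotein that binds galectins, was the most abundant. It read 186, 181 and 185 FPKM in the WT-labelled libraries and 632, 629 and 644 in the CKO-labelled ones (difference 1.78, SE 0.025, limma adjusted p = 1.37e-13). Ifi27l2a, a small hydrophobic protein, read 68.8, 59.8 and 62.1 FPKM against 263, 276 and 301 (difference 2.12, SE 0.056, limma adjusted p = 2.03e-11). Tor3a, an ATPase of the endoplasmic reticulum, had the third smallest difference of the 41, with 31.8, 31.9 and 32.7 FPKM against 78.9, 75.4 and 79.6 (difference 1.25, SE 0.033, limma adjusted p = 2.03e-11). None of these overlapped between the groups, as was common among all genes tested.

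Ifi44 was the lowest effector in the libraries labelled WT, at 1.38 ± 0.185 FPKM, and rose 34.1-fold. Xaf1, a partner of the apoptosis inhibitor XIAP, rose from 3.59 ± 0.743 to 46.5 ± 1.53 FPKM and was the most variable effector among the libraries labelled WT. Ifi47, the 1 immunity-related GTPase on the list, rose 5.81-fold and Ifi35, a leucine-zipper protein, 4.43-fold. Epsti1 rose 3.60-fold, from 16.5 ± 0.989 to 59.3 ± 2.39 FPKM. Of the exon bases of Ifi35 16.8% lie opposite a gene on the other strand that was not analysed here.

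**Figure D3:**
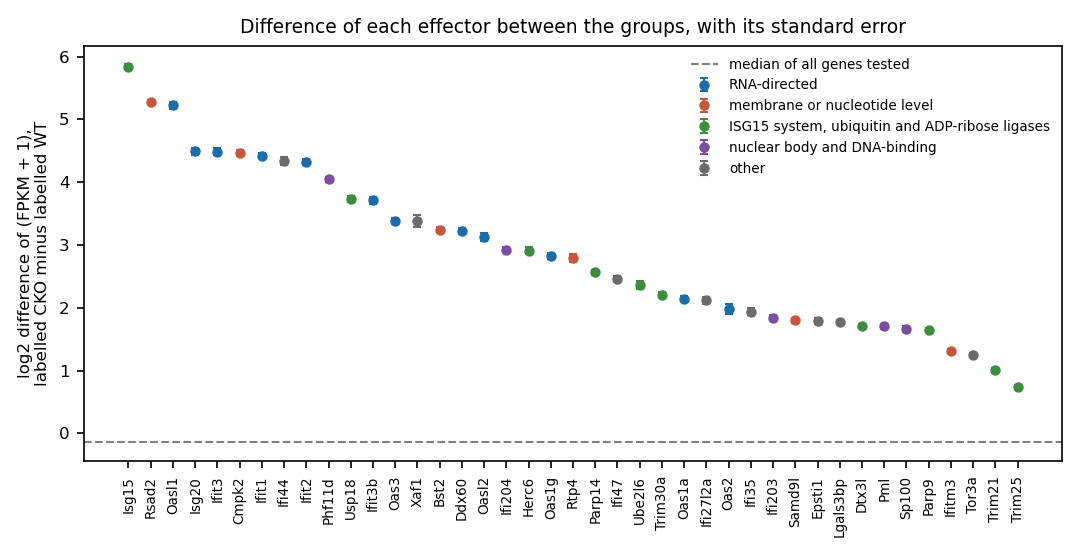
Difference of each effector between the groups on log2(FPKM + 1), labelled CKO minus labelled WT, with bars of 1 standard error from limma that are often smaller than the point, coloured by role and ordered by size. The values fall from 5.84 in Isg15 to 0.74 in Trim25, and the dashed line at -0.14 marks the median of all genes tested.

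The order of the effectors by level was only partly kept between the groups. The Spearman correlation between the mean level in the libraries labelled WT and that in the libraries labelled CKO was 0.52 over 41 genes, which are not independent replicates. Ratios were also set beside the level in the libraries labelled WT, which is their denominator, so that larger ratios at low levels are favoured by construction. The 15 effectors under 10 FPKM there had a median ratio of 18.6, from 2.13 in Trim21 to 43.3 in Oasl1. The 26 at 10 FPKM or more had a median of 4.46, with Trim25 lowest and Isg15 highest. The fewest reads of any effector in a library were 48 among those labelled WT and 582 among those labelled CKO.

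**Figure D4:**
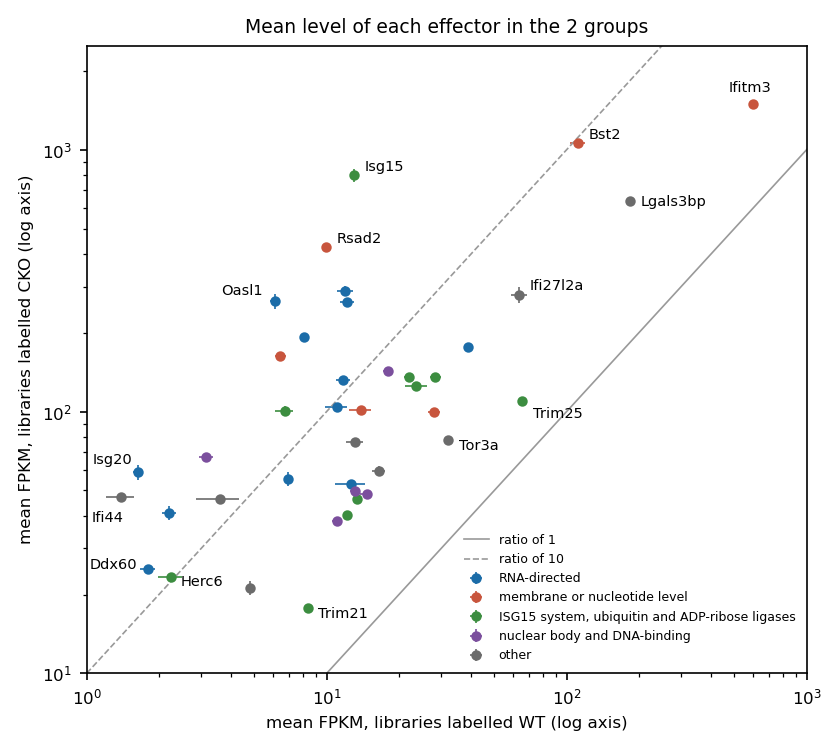
Mean FPKM of each effector in the 3 libraries labelled WT (x, log axis) against the 3 labelled CKO (y, log axis), with bars of 1 SD and colours by role. All 41 points lie above the solid line of equal levels and 16 lie above the dashed line of a 10-fold ratio, with Isg15 farthest from the solid line, Oasl1 and Rsad2 next, and Trim25 closest to it.

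Within groups the effectors were more even in the libraries labelled CKO, where they also took up more of the reads (1.98% against 0.327%). Fewer reads can raise the relative spread of a gene, and the part of this was not tested. The median coefficient of variation was 5.50% among the libraries labelled WT and 2.77% among those labelled CKO, beside 4.51% and 4.68% for all genes tested. In 7 effectors it passed 10% among the libraries labelled WT, up to 20.7% in Xaf1, and in none among those labelled CKO, where the highest was 6.81%. The library labelled WT with replicate number 2 was the lowest of its group in 28 of 41 effectors (68.3%), against 37.5% of all genes tested. Without it the median difference of the effectors was 2.71. In Oas2 that library read 10.5 FPKM beside 13.9 and 13.5, and in Xaf1 2.77 beside 4.21 and 3.79. Every effector kept its call without it.

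The rest of the interferon pathway was less uniform, in data where 30.5% of all genes tested were called higher and 50.5% lower. At the start of the pathway, 13 interferon genes were listed, and 9 of them were at 0 in all 6 libraries. Ifnb1, the interferon-beta gene, had 0 reads in each library labelled WT, against 5, 1 and 4 in the CKO-labelled ones (exact two-sided permutation p = 0.1, the smallest that 3 against 3 libraries allow). Ifng, the interferon-gamma gene, also had 0 reads in each library labelled WT, against 6, 1 and 2 in the CKO-labelled ones. Ifng missed the filter of the main test. A floor of 3 reads in a library would be 0.217 to 0.240 FPKM of Ifnb1 in the libraries labelled WT, and no interferon gene passed 0.389 FPKM in any library. Of 5 tested receptor genes 3 were higher and 2 lower. Both chains of the type I receptor were higher, Ifnar1 by 0.83 and Ifnar2 by 0.57 on the log2 scale (limma adjusted p = 1.22e-09 and 1.81e-07). Ifngr1, the ligand-binding chain of the interferon-gamma receptor, was lower (-1.12), while its other chain, Ifngr2, was higher (0.28, limma adjusted p = 5.45e-06).

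Of 15 genes that carry the signal and start transcription 11 were higher and 3 lower, with a median difference of 0.64. Irf7, the factor that amplifies type I interferon, read 11.6, 11.2 and 12.0 FPKM in the WT-labelled libraries and 522, 532 and 537 in the CKO-labelled ones, a difference of 5.40 that is within the range of the top effectors. Stat2 and Jak2 rose by 2.85 and 3.16. Irf9, the DNA-binding partner of the STAT proteins at the ISRE, rose by only 0.81. Jak1 did not pass the test (0.07, limma adjusted p = 0.0723).

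Nucleic acid sensors and their adaptors went in both directions, 12 higher and 5 lower of 17 tested. The RNA sensors Ddx58 (RIG-I) and Ifih1 (MDA5) rose, the first by 2.39 on the log2 scale and the second from 6.90 ± 0.602 to 30.6 ± 0.403 FPKM. Their relative Dhx58 rose by 2.73, and Zbp1, a sensor of Z-form nucleic acid, by 4.35. Tlr9, the endosomal DNA receptor, was lower (-1.69), as were Mavs, the adaptor of the RNA sensors (-0.37), and Sting1, the adaptor of the DNA sensor (-0.16). The call of Sting1 depends on scaling, since its difference was 0.02 with median-of-ratios scaling.

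Brakes on the pathway included some of the strongest changes, with 5 of 9 tested higher and 3 lower, beside 30.5% and 50.5% of all genes tested. Socs3 and Socs1, which block JAK kinases, rose by 5.67 and 3.85, and Tnfaip3, a brake on NF-kB, by 2.17. Nlrc3, which restrains STING signalling, was lower (-1.44, limma adjusted p = 2.46e-09). The guanylate-binding proteins, immunity-related GTPases and other targets of interferon-gamma were nearly all higher, 17 of 18 tested against 1 lower, with a median difference of 3.17. The lower one was Ciita, at 3.60 ± 0.351 FPKM in the WT-labelled libraries and 1.91 ± 0.0922 in the CKO-labelled ones (difference -0.66, limma adjusted p = 3.29e-06). Gbp5 rose by 4.88, Gbp2 by 4.74, Gbp3 by 4.32 and Igtp by 3.20.

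Close relatives of the effectors were also mostly higher. Of 32 tested, 28 were higher and 2 lower, with a median of 1.77. The HIN200 relatives Ifi205 and Ifi206 rose by 5.36 and 5.12, more than the effectors Ifi204 (2.93) and Ifi203 (1.84), while Ifi207 did not pass the test (0.02). Phf11b, of the same family as Phf11d, rose by 3.95 beside 4.04. Ifit1bl1, a relative of Ifit1, rose by 4.12 beside 4.42. In the Ifitm family Ifitm3 rose by 1.31, Ifitm6 did not pass the test (-0.09), and Ifitm2 was lower (-0.25), a call that was lost with median-of-ratios scaling. Ifi27, which shares a family with Ifi27l2a, was lower by a log2 difference of -1.47 against 2.12 for Ifi27l2a. These differences between relatives were not themselves tested.

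**Figure D5:**
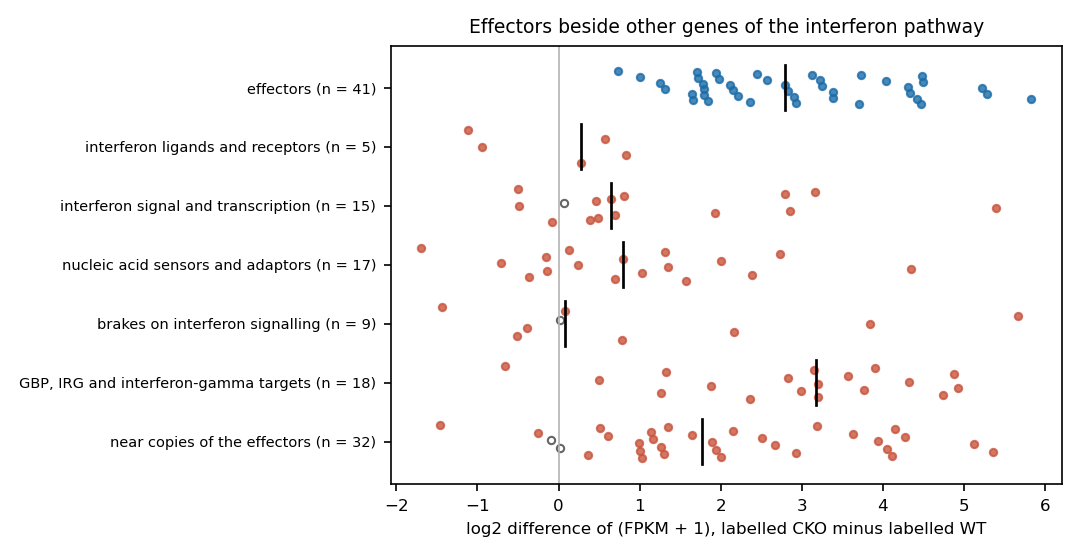
Log2 difference of (FPKM + 1), labelled CKO minus labelled WT, for the 41 effectors (blue) and for 6 other lists of the interferon pathway (red), 1 point per gene tested; filled points passed the test, open points did not, and black bars mark list medians. The effectors lie wholly above 0 around a median of 2.79, next to the guanylate-binding list at 3.17, while receptors, signal proteins, sensors and brakes spread to both sides of 0.

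Effectors with and without an ISRE core in the printed kind of window covered much the same range of differences. Those 14 with the core had a median log2 difference of 3.24, from 1.01 in Trim21 to 5.84 in Isg15. The 19 with a window but no core had a median of 2.45, from 0.74 in Trim25 to 5.22 in Oasl1. Windows reach only 250 bases before the start, and 8 effectors had none.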

How the data were processed

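The authors deposited 1 table of FPKM values per library, per the file headers, and the build was mm10. The submitters' processing notes name the tools without saying what each did: HISAT2 2.1.0, featureCounts 1.6.2, fastp 0.19.3, Cufflinks, StringTie 1.3.4d, GATK 4.0.11.0 and DESeq2 1.22.1. Per the labels' protocols, libraries were made from 1 ug of TRIzol-extracted RNA with a stranded mRNA kit; the strand setting used in counting is not given in the sources used here. FPKM times gene length was a whole multiple of 1 step within 0.01 reads for 100% of values, so reads per gene were recovered for depth and for 1 alternative test.

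The comparison used limma 3.58.1 in R 4.3.3, with lmFit, trended eBayes and no covariate, on log2(FPKM + 1). It covered the 9953 genes that reached 1 FPKM in 3 or more libraries, and p-values were adjusted over all of them by the Benjamini-Hochberg method. Differences on that scale understate changes of low genes. The test was also run on simulated reads in which few genes differed, unlike these data, so its outcome there is not used here. Coordinates were the same in GENCODE M21 for 40 of the 41 effectors (all but Isg15). Shared sequence was counted as 50-base words of GENCODE transcripts found in another gene. Lists used RefSeq synonyms for 2 older symbols. Values in all 6 libraries are given for the 3 largest and 3 smallest differences and the 2 most abundant effectors of each role. Of other lists up to 4 genes with the smallest p are named, with genes needed to read an effector and the 1 lower gene of the guanylate-binding list. Members and lists were chosen with earlier results of these data known. Alternatives were a pseudocount of 0.1 or 0.5, testing every gene, a minimum mean FPKM of 5, median-of-ratios and quantile normalization, limma voom on recovered reads, the replicate number as a block, and each library left out. Some genes of the other lists are counted but not reported by name here.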

Additional observations from a re-analysis of the deposited data

How the results depend on the processing

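All 41 effectors kept their direction and their call under each of 14 alternatives, with a largest adjusted p of 1.76e-06 (limma) and a smallest log2 difference of 0.67. Leaving out single libraries moved the median of the effectors between 2.71 and 2.84. Median-of-ratios scaling moved the median of all genes by 0.16 and gave the effectors a median of 2.97; quantile normalization moved all genes by 0.10. Median-of-ratios scaling also left 3 nucleic acid sensors and 1 close relative lower, and turned Sting1 to 0.02. Among genes that missed the threshold, Jak1 passed it in 4 alternatives, Ifitm6 in 2 and Ifi207 in 1. Without a filter 5 interferon ligand and receptor genes were higher. With a mean FPKM of at least 5, and so fewer genes tested, 3185 genes were lower, as were 1 brake and 0 genes of the guanylate-binding list. Replicate numbers did not pair the libraries (correlations of same-numbered libraries 0.019, 0.012 and -0.039); with the replicate block 8041 genes were called instead of 8069, and the effectors called higher stayed at 41. Limma voom on recovered reads called 8084. With 3 libraries a group, single-gene exact tests cannot pass 0.1.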
